A study of Mus musculus with 3 samples.

Results

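The 40 genes described here encode enzymes, membrane proteins and proton pump subunits of the lysosome, together with 2 transcription factors that act on lysosomal genes. They were chosen by name and not by a rule on their measured values, though with earlier results of these data known. All 40 were found among the 32286 genes measured in lavage cells of bleomycin-treated mice. By function they comprised 7 cysteine proteases, 3 other proteases and 9 glycosidases with a sulfatase among them. There were 7 lipid enzymes with their activators and sterol carriers, 5 proton pump genes and 2 transcription factors. The last 7 were progranulin and membrane proteins, among these a channel.

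Bleomycin is a drug whose lung injury serves as a model of pulmonary fibrosis. It was instilled into the airways of all mice, and cells were washed from the airspaces 14 days later. There were 3 groups: wild-type (WT) mice with DMSO, the vehicle, WT mice given GW5074, an inhibitor of RAF kinase of the small-molecule kind, and knockout (KO) mice with DMSO without Clec7a, which encodes Dectin-1, a receptor for β-glucan. Lavage fluid was pooled within each group, sorted for CD11b+ or CD11c+ cells and sequenced as 1 droplet library of 3' transcript ends. Every group received bleomycin, so no library shows the uninjured lung, and the strain, age and number of mice are not given in the sources used here. The comparisons address what the inhibitor and the loss of the receptor do to lavage cells. With 1 library per group no test between groups was possible, and a group cannot be told apart from its pool or run.

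Lysosomes are acidic compartments in which hydrolases break down proteins, glycans and lipids that a cell has taken up or recycled. The vacuolar proton pump acidifies them, most hydrolases are delivered in precursor form, and the membrane proteins protect the boundary and export the products. Alveolar macrophages clear surfactant, dead cells and particles through this compartment, neutrophils rely more on granules, and dendritic cells keep proteolysis low enough to preserve peptides for presentation.

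TFEB and TFE3, both among the 40 genes, are factors that bind an E-box, CACGTG, in the promoters of many lysosomal genes. RefSeq promoter sequences (build GRCm38.p6, 250 bases before to 50 after each start site) were found for 34 of the 40 genes. Those of Ctsb, Ctsh, Npc1, Asah1, Atp6v0d2 and Atp6v1h were not used here. CACGTG, which reads the same on both strands, was present in 12 of the 34 genes (35.3%) and in 8.09% of all 27025 genes with a promoter in that table (7.15% of promoters). The longer TCACGTGA, which contains it, was present in 6 genes (17.6%), Atp6v0d1, Atp6v1a, Cln3, Ctsa, Ctsd and Mcoln1, against 1.12% of all genes (0.974% of promoters). These windows are shown to describe the sequences. The motif is known from promoters of many lysosomal genes and these genes were chosen as lysosomal, so its larger share here is not an independent result. The capitals mark TCACGTGA, and the letters run 5′ to 3′ on the strand of the gene. A match is a description of the letters and not of binding. Ctsa has another match, whose window overlaps the one shown and is not printed.
Ctsd, chr7:142387893-142387952, minus strand: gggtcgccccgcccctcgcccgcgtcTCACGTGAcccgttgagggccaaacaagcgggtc
Cln3, chr7:126583325-126583384, minus strand: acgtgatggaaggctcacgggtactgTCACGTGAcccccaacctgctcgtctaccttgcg
Mcoln1, chr8:3500447-3500506, plus strand: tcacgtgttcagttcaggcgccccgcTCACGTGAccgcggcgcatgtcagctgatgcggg
Atp6v1a, chr16:44139358-44139417, minus strand: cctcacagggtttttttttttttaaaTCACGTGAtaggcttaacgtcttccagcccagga
Atp6v0d1, chr8:105566050-105566079, minus strand: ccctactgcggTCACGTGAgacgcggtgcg
Ctsa, chr2:164833749-164833778, plus strand: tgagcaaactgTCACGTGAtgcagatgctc

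The 3 libraries held 11678 to 17809 barcodes and 34859676 to 45462817 UMIs (counted molecules), and 42888 cells were kept at a median depth of 2276 to 2937 UMIs. Of 20 clusters, 14 were named by markers and are called "-like". The resident alveolar macrophage-like class (1340, 4236 and 3627 cells in the WT DMSO, GW5074 and KO libraries) comprised a Wfdc21-led and an Htr2c-led cluster, the second with 4 of 4 markers of a Krt19 state raised. The monocyte-derived macrophage-like class (1488, 5206 and 2900 cells) comprised a Mmp12-led, a Pf4-led and a Fstl1-led cluster. The Fstl1-led cluster raised 3 of 12 markers of the class but a larger share of the monocyte list (2 of 7, too few for a name). The monocyte genes Ly6c2 and F13a1 were among its leading genes. A Vcan-led cluster raised 8 of 12 markers of the class and an equal share of the neutrophil list (6 of 9). It stayed unnamed and outside the class, with 1277, 257 and 120 cells in the WT DMSO, GW5074 and KO libraries. What its absence does to the comparisons between libraries was not tested. Clec7a was at 863, 914 and 15.1 CPM in the resident class of the 3 libraries, 57.4-fold lower in the KO than in the WT DMSO library (49.0 to 67.6). The libraries shared 80 to 154 cell barcodes pairwise, and neutrophil-like cells numbered 3064, 118 and 254 at median depths of 643, 573.5 and 600.5 UMIs. Levels are given as CPM, the UMIs of a gene per 1000000 UMIs summed over the cells of a class in 1 library. Molecules were counted at their 3' end, so levels can be set side by side between genes without a correction for length. The intervals are at the 95% level and take in counting error alone. "Higher" and "lower" are used for a ratio of at least 1.5-fold (0.58 on the log2 scale) whose interval excludes 1.

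The 40 genes took up a larger share of the transcripts of macrophages than of any other class compared. In monocyte-derived macrophage-like cells they made up 4.404%, 4.81% and 4.11% of all UMIs in the WT DMSO, GW5074 and KO libraries. In resident alveolar macrophage-like cells the shares were 3.59%, 3.48% and 3.04%. The shares were lowest in migratory dendritic cell-like cells, at 0.640%, 0.791% and 0.647%, and the 2 macrophage classes did not overlap with any of the 5 other classes. A trio carried most of it: Ctsd, an aspartic protease, Ctss, a cysteine protease that cuts elastin and the invariant chain, and Psap, the precursor of the saposins that help degrade sphingolipids. These 3 genes alone made up 2.72%, 2.98% and 2.46% of UMIs in monocyte-derived and 2.19%, 2.07% and 1.72% in resident alveolar macrophage-like cells.

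**Figure D1:**
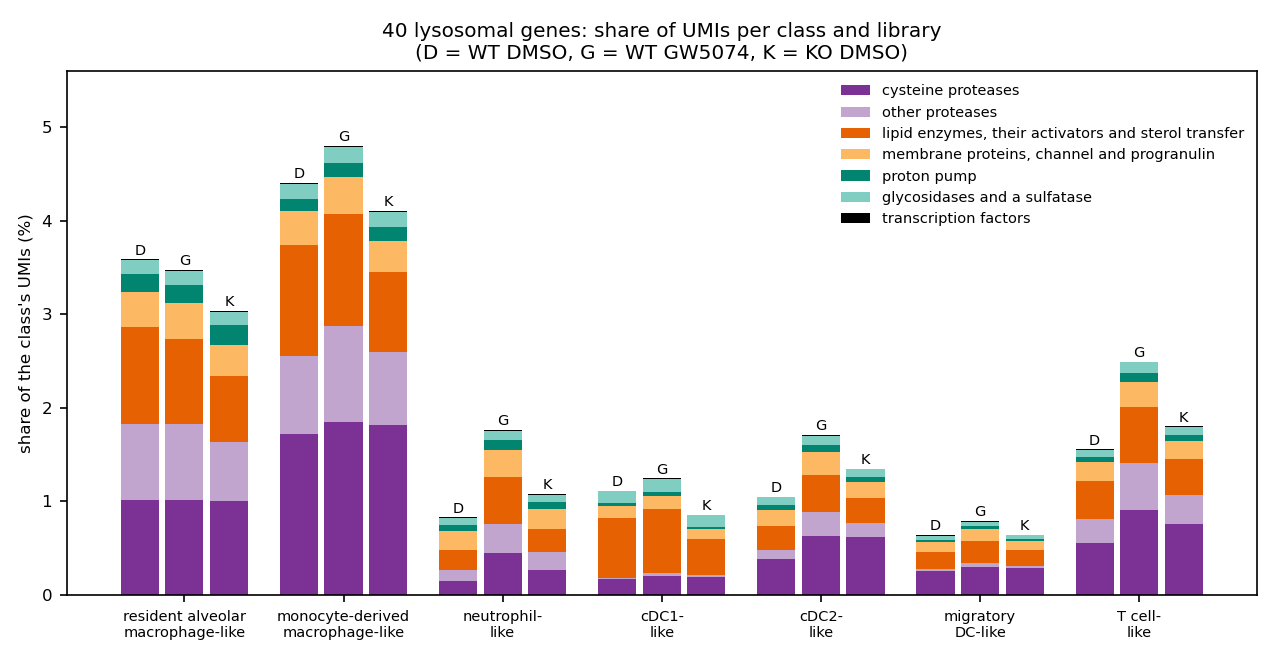
Stacked bars of the share of each class's UMIs (%) taken by the 40 lysosomal genes, coloured by function, for the 7 classes with at least 100 cells in each library; D, G and K mark the WT DMSO, WT GW5074 and KO DMSO libraries. The monocyte-derived macrophage-like bars, at 4.11% to 4.81%, are the tallest, and the migratory dendritic cell-like bars, at 0.640% to 0.791%, the shortest.

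Across the 7 classes, 23 of the 40 genes had their highest level in monocyte-derived macrophage-like cells in all 3 libraries, 5 in resident alveolar macrophage-like cells, 2 in conventional dendritic cell 1 (cDC1)-like cells and 1 in neutrophil-like cells, while for the others the top class differed between libraries. The lowest mean level was in migratory dendritic cell-like cells for 22 genes, in cDC1-like cells for 16 and in neutrophil-like cells for 2. These counts were not made over all genes, so they do not show a pattern particular to the 40. The highest class stood above the lowest by 1.88-fold for Atp6v1h, a regulatory pump subunit, and by 55.8-fold for Atp6v0d2, the pump subunit isoform known from osteoclasts and macrophages, with a median of 7.91-fold over the 40 genes.

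**Figure D2:**
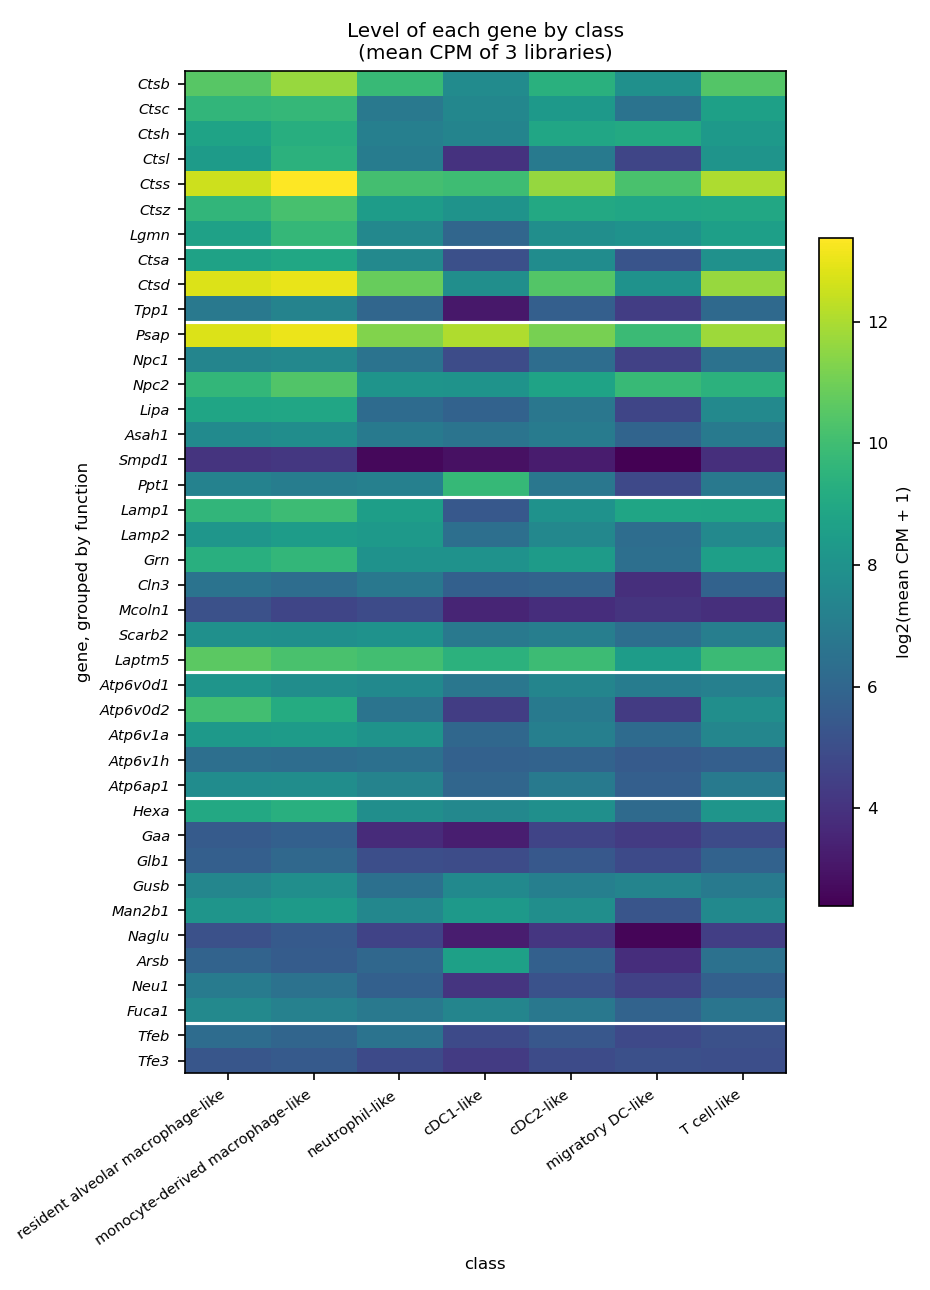
Heat map of the level of each of the 40 genes (rows, grouped by function with white lines between groups) in 7 classes (columns), coloured by log2 of the mean CPM of the 3 libraries plus 1. Ctss, Ctsd and Psap are the brightest rows, Atp6v0d2 is bright in the macrophage columns, and Ppt1 and Arsb are brightest in the cDC1-like column.

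Between the 2 macrophage classes few of the 40 genes passed the size rule in all 3 libraries, and most of those few were cysteine proteases. No background share was made for single functional groups. In all 3 libraries 5 of the 40 genes were higher and 1 was lower in monocyte-derived than in resident alveolar macrophage-like cells, while 10.5% of the genes tested passed that rule in either direction. Ctsb, an endopeptidase with a second, carboxypeptidase activity, was at 3152, 3522 and 3046 CPM in monocyte-derived and at 1548, 1485 and 1410 CPM in resident alveolar macrophage-like cells, 2.04-fold to 2.37-fold higher. Ctsl, an endopeptidase of the same family, was at 742, 708 and 659 against 384, 332 and 307 CPM (1.93-fold to 2.14-fold). Lgmn, the asparaginyl protease that matures several cathepsins, was at 906, 957 and 638 against 483, 432 and 314 CPM (1.88-fold to 2.22-fold). The values of the 2 classes did not overlap across libraries for any of these 3 genes. Ctss was at 9843, 10634 and 11290 against 5769, 5771 and 6135 CPM (1.71-fold to 1.84-fold). Npc2, which carries cholesterol within the lysosome, was at 1290, 1376 and 1309 against 835, 826 and 742 CPM (1.54-fold to 1.76-fold). The Npc2 call was lost at a coarser clustering (a mean log2 ratio of 0.53 at Leiden resolution 0.5) and after thinning each cell to 1000 UMIs (0.71). Atp6v0d2 went the other way, at 480, 538 and 700 CPM in monocyte-derived against 936, 977 and 1266 CPM in resident alveolar macrophage-like cells, 1.81-fold to 1.95-fold lower. Of the 40 genes 25 were above, and 12 below, their resident level in all 3 libraries, most by less than the rule. The same count was not made over all genes, whose median log2 ratio was −0.09, −0.09 and −0.12 in the WT DMSO, GW5074 and KO libraries.

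Among the other proteases Ctsd stood at 7777, 9488 and 7062 CPM in monocyte-derived and at 7614, 7615 and 5814 CPM in resident alveolar macrophage-like cells, a range in which the 2 classes overlapped. Ctsa, a carboxypeptidase that also protects a sialidase and a galactosidase, and Tpp1, a tripeptidyl peptidase, had their highest level in monocyte-derived macrophage-like cells in all 3 libraries, at 439, 528 and 480 CPM for Ctsa and at 136, 166 and 169 CPM for Tpp1. The other cysteine proteases Ctsc, Ctsh and Ctsz were also highest there, up to 1229 CPM for Ctsz.

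Of the lipid genes Psap was the most abundant, at 9603, 9694 and 6215 CPM in monocyte-derived and 8468, 7323 and 5244 CPM in resident alveolar macrophage-like cells. Psap was also high in cDC1-like cells, at 5095, 5373 and 2512 CPM. Its level was lowest in the KO library in both macrophage classes and in cDC1-like cells. Lipa, the acid lipase, stood at 441 to 484 CPM in both macrophage classes and at 20.6 to 29.5 CPM in migratory dendritic cell-like cells. Npc1, the membrane partner of Npc2, and Asah1, the acid ceramidase, were at 161 to 190 CPM and 181 to 237 CPM in the macrophage classes, and Smpd1, the acid sphingomyelinase, at only 11.4 to 19.8 CPM.

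The membrane group was led by Laptm5, a transmembrane protein of lysosomes in blood cells, at 1676, 1648 and 1380 CPM in resident and 1207, 1297 and 1052 CPM in monocyte-derived macrophage-like cells, so that the resident class was above in each library but under the size rule. Lamp1, a coat protein of the membrane, was at 743 to 1040 CPM in the macrophage classes and Grn, progranulin, at 597 to 879 CPM. Mcoln1, the TRPML1 calcium channel, was the scarcest of the group at 21.1 to 37.3 CPM. Among the pump genes Atp6v0d2 was the most abundant in both macrophage classes, above Atp6v1a, the catalytic subunit, at 311 to 354 CPM, and Atp6v0d1, the ubiquitous isoform of the same subunit, at 210 to 293 CPM. Hexa, the α chain of β-hexosaminidase, led the glycosidases at 558, 724 and 615 CPM in monocyte-derived and 534, 560 and 481 CPM in resident alveolar macrophage-like cells. Tfeb was the more abundant of the 2 factors in resident alveolar macrophage-like cells, at 80.8, 80.8 and 70.2 CPM against 36.1, 42.1 and 38.1 CPM for Tfe3.

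In cDC1-like and migratory dendritic cell-like cells most genes of this set were lower than in the resident class, while a few stayed at a high level. The cDC2-like class was not set against the resident class. In cDC1-like cells 2 of the 40 genes were higher and 32 lower than in resident alveolar macrophage-like cells in all 3 libraries, while 39.0% of genes tested passed that rule. Ppt1, which removes palmitate from proteins, was at 830, 909 and 840 CPM in cDC1-like and 141, 148 and 164 CPM in resident alveolar macrophage-like cells, 5.12-fold to 6.15-fold higher. Arsb, a sulfatase of dermatan and chondroitin sulfate, was at 391, 446 and 359 against 59.0, 65.2 and 50.4 CPM (6.64-fold to 7.12-fold). These 2 genes were higher in cDC1-like cells than in each other class in all 3 libraries. Ctsd, in contrast, was at 131, 355 and 186 CPM there, 21.5-fold to 58.1-fold lower than in the resident class, and Tpp1 at 5.89, 11.9 and 5.11 CPM. In migratory dendritic cell-like cells 34 genes were lower and none was higher, against 53.1% of genes tested. A scaling by trimmed means moved these ratios up by 0.14 to 0.23 on the log2 scale. The ratios to the resident class were lowest for Atp6v0d2, at 11.5, 22.2 and 23.3 CPM, and for Ctsd, at 179, 368 and 212 CPM. The other 6 genes did not pass the rule in all 3 libraries. Ctsh, an aminopeptidase, was at 505, 517 and 562 CPM, above its resident level in each library, and Npc2 was at 711, 966 and 954 CPM. Gusb and Tfe3 did not pass in any library. Lgmn, at 212, 312 and 224 CPM, was below its resident level in each library but past the rule in the WT DMSO library alone (2.28-fold), and Ctsz passed in the WT DMSO and GW5074 libraries (1.94-fold and 1.66-fold).

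Neutrophil-like cells had 14 of the 40 genes lower than resident alveolar macrophage-like cells in all 3 libraries and none higher, against 14.8% of genes tested. With factors that centre most genes (trimmed means, which shift these ratios by −0.33 to −0.47 on the log2 scale) 23 of the 40 were lower. Lipa was at 45.7, 97.0 and 82.6 CPM in neutrophil-like cells, 4.55-fold to 10.5-fold lower, Ctss at 599, 1661 and 985 CPM (3.47-fold to 9.62-fold) and Ctsc, which activates the serine proteases of granules, at 83.3, 206 and 53.1 CPM (4.12-fold to 13.7-fold). Each of these 3 genes was below its resident level in every library. Cln3, a membrane protein lost in a juvenile storage disease, was the only gene with its highest level in neutrophil-like cells in all 3 libraries, at 96.1, 109 and 124 CPM, close to 95.5, 96.9 and 89.3 CPM in resident alveolar macrophage-like cells. Scarb2, the carrier of β-glucocerebrosidase, was at 247, 291 and 212 CPM in neutrophil-like cells and at 214 to 257 CPM in the macrophage classes, and its ratio to the resident class did not pass the rule in any library.

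Within the macrophage classes the Pf4-led cluster, which also carried C1qc and Apoe, had the largest lysosomal share, at 5.18%, 5.61% and 4.83% of its UMIs, against 3.52%, 3.82% and 3.42% in the Mmp12-led cluster of the same class. It was the highest of the 5 macrophage clusters in all 3 libraries for 16 of the 40 genes. Against the Mmp12-led cluster 4 genes were higher in all 3 libraries and none lower, while 4.64% of genes tested passed. Ctsd was at 10405, 12412 and 9802 CPM in the Pf4-led and 4269, 5140 and 3936 CPM in the Mmp12-led cluster (2.41-fold to 2.49-fold), Ctsb at 4325, 4918 and 4371 against 2220, 2367 and 2193 CPM, and Ctsl at 1118, 1010 and 977 against 495, 484 and 479 CPM. Atp6v0d2 was at 669, 657 and 865 against 216, 276 and 337 CPM (2.39-fold to 3.09-fold). The Fstl1-led cluster had shares of 4.66%, 4.998% and 4.39%. In the resident class the Wfdc21-led cluster had 3.68%, 3.77% and 3.37% and the Htr2c-led cluster 3.34%, 3.001% and 2.55%. Only 1 gene passed the rule between these 2 in all 3 libraries, against 4.55% of genes tested: Ctss was at 3438, 3567 and 3625 CPM in the Htr2c-led and 6615, 7091 and 7860 CPM in the Wfdc21-led cluster, 1.92-fold to 2.17-fold lower. The Htr2c-led cluster was the highest of the 5 for 7 genes in every library, among them Neu1, the sialidase, Fuca1, the fucosidase, Mcoln1, Atp6v0d1 and Laptm5. Over all genes tested the median log2 ratio of this cluster to the Wfdc21-led cluster was 0.05, 0.11 and 0.11 in the 3 libraries. Neither this count of 7 nor the 16 of the Pf4-led cluster was made over all genes, so no background share stands beside them. Clusters were formed without the 40 genes, but they share cells and libraries with the levels described, so these contrasts are descriptions.

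In the 2 macrophage classes no lysosomal gene passed the size rule between the GW5074 and the WT DMSO library, and few of all genes tested did. In resident alveolar macrophage-like cells 0 of the 40 genes passed the size rule, while 1.81% of genes tested did. The median log2 ratio over the 40 was 0.01 (−0.01 over all genes tested), with 22 genes above 0 and 18 below, while 47.5% of genes tested were above 0. In monocyte-derived macrophage-like cells 0 of the 40 passed, against 1.30% of genes tested. Here the median was 0.11 (0.00 over all genes), and 35 of the 40 ratios were above 0, none by more than 1.30-fold. Of all genes tested 50.1% were above 0. The largest were Hexa, at 558 and 724 CPM, 1.30-fold (1.2496 to 1.348), and Gaa, the acid α-glucosidase, at 48.3 and 60.9 CPM, 1.26-fold (1.11 to 1.44). Ctsd was at 7777 and 9488 CPM (1.22-fold, 1.21 to 1.23) and Psap at 9603 and 9694 CPM (1.01-fold). In resident alveolar macrophage-like cells Gaa again had the highest ratio, at 39.5 and 54.7 CPM, 1.38-fold (1.18 to 1.63), and Psap the lowest, at 8468 and 7323 CPM, 1.16-fold (1.14 to 1.17). The intervals cover the sampling of molecules only, and a ratio under the rule does not show that the levels are alike.

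In the KO library Psap was lower than in the WT DMSO library in both macrophage classes, and Lgmn in the resident class. Psap (chromosome 10, 60277627 to 60302597, plus strand, mm10) was at 8468, 7323 and 5244 CPM in the resident class of the WT DMSO, GW5074 and KO libraries, 1.61-fold lower (1.59 to 1.64) in KO than in WT DMSO. Lgmn (chromosome 12, 102394084 to 102439813, minus strand) was at 483, 432 and 314 CPM, 1.54-fold lower (1.46 to 1.62). These were the only 2 of the 40 genes past the rule in that class, against 6.77% of genes tested, and the Lgmn ratio, −0.62 on the log2 scale, was −0.56 with trimmed-mean and −0.54 with median-of-ratios factors, under the rule. The median log2 ratio over the 40 was −0.13 (−0.05 over all genes). In monocyte-derived macrophage-like cells Psap was at 9603, 9694 and 6215 CPM, 1.55-fold lower (1.53 to 1.56) in KO, and was the only 1 of the 40 past the rule, against 5.52% of genes tested. That call was lost with trimmed-mean and median-of-ratios factors (both −0.54 on the log2 scale, from −0.63) and when each cell was gated by its own markers (−0.57). The median there was −0.03 (−0.07 over all genes) and turned to 0.06 with trimmed-mean factors. Lgmn in this class was at 906, 957 and 638 CPM, a 1.42-fold ratio (1.37 to 1.47) under the rule. It came past the rule with CPM averaged over cells (−0.68 on the log2 scale) and after thinning (−0.61). The KO level of both genes was thus the lowest of the 3 libraries in both classes.

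Several genes of the resident class had KO levels below both WT libraries without passing the rule. Neu1 was at 140, 135 and 97.7 CPM (1.43-fold, 1.30 to 1.58) and Ctsd at 7614, 7615 and 5814 CPM (1.31-fold, 1.29 to 1.33). With cells gated by their own markers the log2 ratio of Ctsd was −0.67, past the rule. Laptm5 was at 1676, 1648 and 1380 CPM. Atp6v0d2 lay on the other side, at 936, 977 and 1266 CPM in resident (1.35-fold, 1.31 to 1.40) and at 480, 538 and 700 CPM in monocyte-derived macrophage-like cells (1.46-fold, 1.40 to 1.52). Its KO level was the highest of the 3 libraries in both classes, and in the monocyte-derived class the ratio passed the rule with trimmed-mean factors (0.63 on the log2 scale), with median-of-ratios factors (0.64), with CPM averaged over cells (0.71) and after thinning each cell to 1000 UMIs (0.73).

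**Figure D3:**
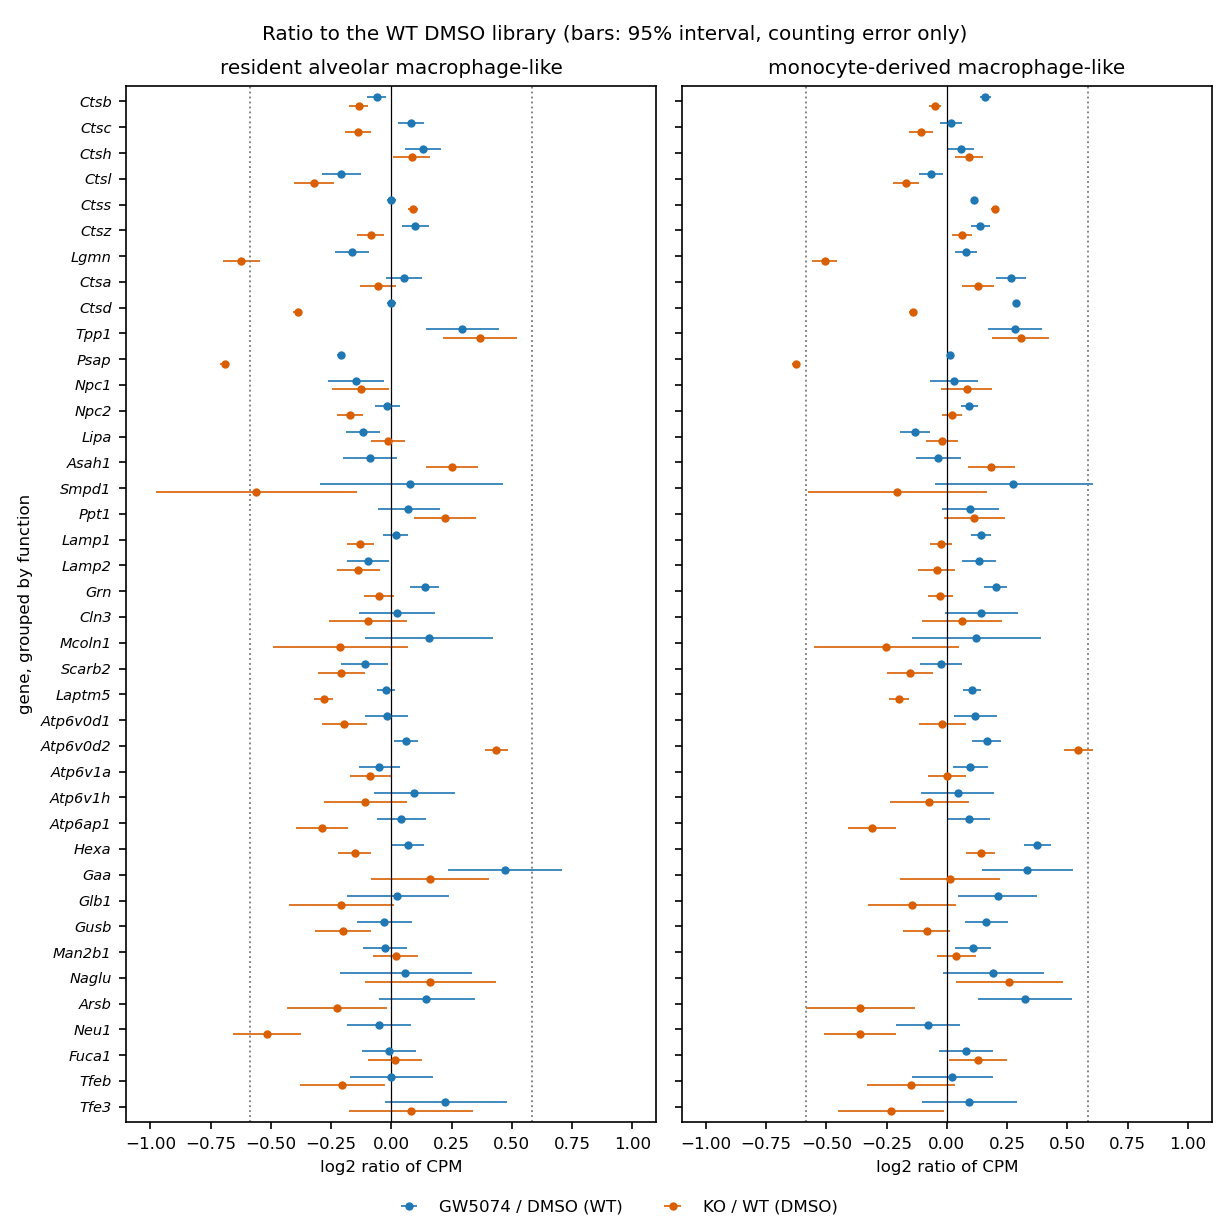
Log2 ratios to the WT DMSO library of the 40 genes (rows, grouped by function) in resident alveolar (left) and monocyte-derived (right) macrophage-like cells, for GW5074 in WT (blue) and KO under DMSO (orange), with 95% intervals of counting error; dotted lines mark 1.5-fold. The blue points stay inside the lines in both panels, and the orange points of Psap (both panels) and Lgmn (left panel) lie beyond the lower line. Both series share the WT DMSO library.

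Both comparisons share the WT DMSO library, so their values are given side by side and not as independent results. Set directly against the GW5074 library, the KO library had 1 of the 40 genes lower in resident alveolar macrophage-like cells, against 3.06% of genes tested: Smpd1 at 17.8 and 11.4 CPM, 1.56-fold (1.24 to 1.97). In monocyte-derived macrophage-like cells 3 were lower, against 4.31% of genes tested: Psap at 9694 and 6215 CPM, 1.56-fold (1.55 to 1.57), Lgmn at 957 and 638 CPM, 1.501-fold (1.46 to 1.54), and Arsb at 57.5 and 35.8 CPM, 1.60-fold (1.42 to 1.81). Psap in resident alveolar macrophage-like cells, at 7323 and 5244 CPM, gave 1.40-fold (1.38 to 1.41), under the rule.

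The same comparison was made within each cluster of both macrophage classes. Under GW5074, 0 of the 40 genes passed in the Wfdc21-led (2.12% of genes tested), Mmp12-led (2.65%) and Pf4-led clusters (3.22%). In the Htr2c-led cluster 1 was lower (4.69% of genes tested), Ctsl at 355.5 and 226.9 CPM, and in the Fstl1-led cluster 1 was higher (4.61%), Arsb at 32.7 and 58.3 CPM. In the KO library the Htr2c-led cluster had 5 of the 40 genes lower, against 10.5% of genes tested. Psap was at 7721 and 4576 CPM in the WT DMSO and KO libraries there, Ctsd at 8286 and 5062 CPM, Ctsl at 355.5 and 200.8 CPM, Lgmn at 493 and 258 CPM and Neu1 at 181 and 108 CPM. The GW5074 levels of these 5 genes in that cluster, 6210, 6901, 226.9, 365 and 154.5 CPM, lay between those of the other libraries. The genes were picked by their ratio of KO to WT DMSO, which favours such an order, so it is not a separate result. Psap alone was lower in the Wfdc21-led (8739 and 5703 CPM, 8.08% of genes tested) and the Pf4-led cluster (10858 and 6624 CPM, 8.15%). In the Mmp12-led cluster Atp6v0d2 was higher, at 216 and 337 CPM, and Smpd1 lower, at 15.8 and 10.1 CPM (8.80%), with Psap just inside the rule at a log2 ratio of −0.58. In the Fstl1-led cluster only Atp6v0d2 passed, higher at 625 and 1102 CPM (7.98%), and Psap had a log2 ratio of −0.53. Some clusters with raised macrophage markers had no class. Under GW5074 the Vcan-led cluster had 4 of the 40 genes higher (7.65% of genes tested). A Sftpc-led cluster had 1 higher (4.43%) and the cycling cluster 1 lower (4.56%). For KO the Vcan-led cluster had 1 higher (10.7%) and the Sftpc-led cluster 2 lower (14.5%). The cycling cluster had 2 higher and 1 lower (8.41%).

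Outside the macrophages Psap was lower in KO in cDC1-like cells, at 5095, 5373 and 2512 CPM in the WT DMSO, GW5074 and KO libraries, 2.03-fold (1.96 to 2.098). It was 1 of 3 of the 37 genes tested past the rule there (13.8% of genes tested), with Glb1, β-galactosidase, lower at 32.2, 38.2 and 20.4 CPM and Atp6v0d2 higher at 14.1, 22.7 and 23.0 CPM. The Atp6v0d2 call was lost under 3 alternatives, among them a stricter cell filter (0.68 on the log2 scale), and the count of 3 was 1 after thinning. The summed level of 25 macrophage markers in these cells was 1171, 1534 and 1218 CPM, and its part in the result was not tested. In migratory dendritic cell-like cells 3 of 38 genes passed (22.6% of genes tested): Psap at 925, 1296 and 598 CPM (1.55-fold lower, 1.48 to 1.62), Laptm5 at 390, 412 and 248 CPM (1.57-fold lower) and Atp6v0d2 at 11.5, 22.2 and 23.3 CPM (2.03-fold higher, 1.53 to 2.68). This class held a Mylk-led cluster of 1345 WT DMSO cells but 32 and 11 cells of the other libraries, and the Clu-led cluster was its largest in those. Within the Clu-led and the Il12b-led clusters, which all 3 libraries filled, the log2 ratio of Psap was −0.81 and −0.71. With trimmed-mean factors, which moved all ratios of that class up by 0.15, the Psap ratio of the class was −0.48, under the rule. That call was also lost with median-of-ratios factors (−0.45), at Leiden resolution 2 (−0.58), with gated cells (−0.54) and without the highest doublet scores (−0.55), and the count of 3 was 1 with gated cells. In cDC2-like, T cell-like and neutrophil-like cells Psap had KO levels of 1727, 2568 and 1752 CPM against 1937, 3076 and 1552 CPM in WT DMSO, none past the rule. In T cell-like cells the log2 ratio of Psap came past it at Leiden resolution 2 (−1.30) and with cells gated by their own markers (−0.80).

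**Figure D4:**
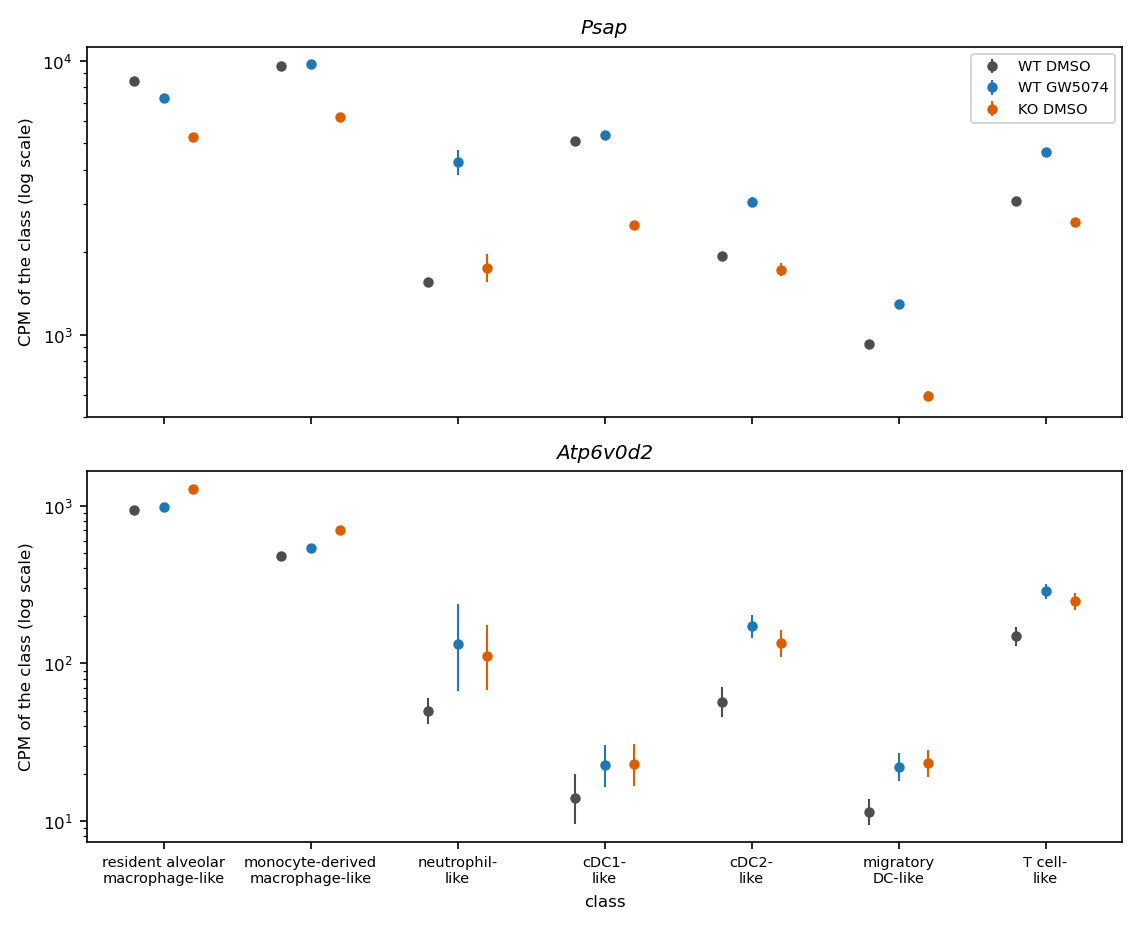
CPM (log axis) of Psap and Atp6v0d2 in 7 classes for the WT DMSO (grey), WT GW5074 (blue) and KO DMSO (orange) libraries; bars are exact Poisson 95% intervals. Psap in the KO library lies below both WT libraries in the macrophage, cDC1-like and migratory dendritic cell-like classes, and Atp6v0d2 in the KO library lies above the WT DMSO library in all 7 classes.

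The counts past the rule were larger under GW5074 in cDC2-like, neutrophil-like and T cell-like cells than in the macrophage classes, and the macrophage markers of these 3 classes are given beside them. In cDC2-like cells 18 genes were higher and 1 lower of 39 under GW5074 (14.5% of genes tested). Ctsd was at 725, 2178 and 1192 CPM in the WT DMSO, GW5074 and KO libraries (3.01-fold under GW5074, 2.79 to 3.24), Ctsb at 345, 882 and 728 CPM, Lamp1 at 155, 383 and 226 CPM and Atp6v0d2 at 57.1, 172 and 135 CPM, each lowest in the WT DMSO library. The lower gene was Mcoln1, at 22.1, 8.08 and 9.25 CPM. In KO, 11 genes were higher and 1 lower of 39 in these cells (17.9% of genes tested). The summed level of the 25 macrophage markers was 2795, 5807 and 4692 CPM, with 23, 24 and 24 markers detected, and its part in the result was not tested. Without the 10% of cells with the highest doublet scores the count under GW5074, 19 in both directions, was 6, with CPM averaged over cells it was 10, and with cells gated by their own markers it was 2. The count in KO, 12 in both directions, was also 2 with gated cells.

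Neutrophil-like cells had 15 of 39 genes higher under GW5074 (8.16% of genes tested) and 9 of 39 in KO (14.0%). Ctsb was at 384, 1467 and 826 CPM in the WT DMSO, GW5074 and KO libraries, Ctsd at 1004, 2776 and 1587 CPM and Ctsz at 143, 509 and 389 CPM, each lowest in the WT DMSO library. The summed macrophage markers in these cells were at 1949, 6244 and 2754 CPM, with 24, 17 and 19 of 25 detected. The KO count was 19 with CPM averaged over cells. Only 118 and 254 cells stand behind the GW5074 and KO values, and the part of the markers was not tested. T cell-like cells had 15 of 40 genes higher under GW5074 (9.34% of genes tested), with Ctsd at 2300, 4647 and 2818 CPM, and 3 higher and 1 lower in KO (13.2%). Their summed macrophage markers were at 6996, 12378 and 11525 CPM, with 23, 25 and 24 detected. The same sum in the resident alveolar macrophage-like class was 15158, 12441 and 11420 CPM, close to the T cell-like values in the GW5074 and KO libraries. The T cell-like cluster also raised 4 of 12 markers of the monocyte-derived class. The T cell-like counts thus cannot be read as values of T cells alone, and the part of the markers was not tested. The T cell-like count under GW5074 was 2 at a finer clustering (Leiden resolution 2), 8 with gated cells, 23 with CPM averaged over cells and 27 after thinning. In KO the count of 4 was 7 with trimmed-mean factors, with median-of-ratios factors and after thinning, and 9 at Leiden resolution 2. In cDC1-like cells 5 of 38 genes were higher under GW5074 (4.76% of genes tested): Ctsd at 131 and 355 CPM, Ctsl at 12.7 and 22.2 CPM, Lgmn at 48.0 and 91.8 CPM, Lamp1 at 32.6 and 56.2 CPM and Gaa at 6.35 and 14.4 CPM. That count was 17 at Leiden resolution 0.5, 10 with gated cells and 2 after thinning. In migratory dendritic cell-like cells 2 of 38 were (9.65%), Ctsd at 179 and 368 CPM and Atp6v0d2 at 11.5 and 22.2 CPM. This count was 4 with CPM averaged over cells, 5 at Leiden resolution 2, 7 without the highest doublet scores and 9 with gated cells. The summed markers there were at 552 and 838 CPM, and their part was not tested.

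**Figure D5:**
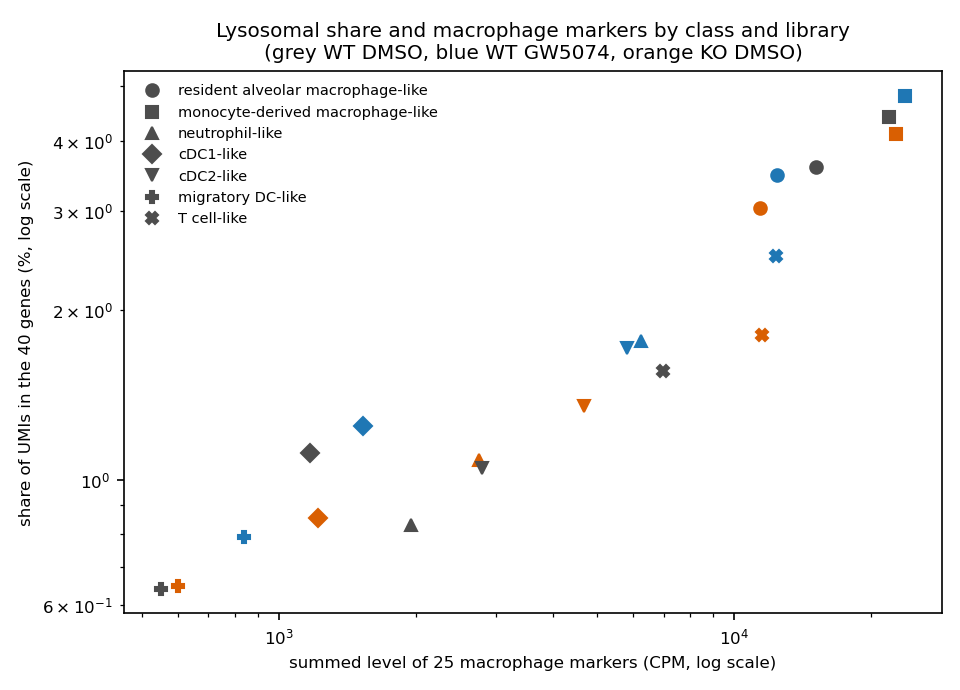
Share of UMIs in the 40 genes (%, log axis) against the summed level of 25 macrophage markers (CPM, log axis), 1 point per class (symbol) and library (grey WT DMSO, blue WT GW5074, orange KO DMSO). From the WT DMSO to the GW5074 library both measures go up together in neutrophil-like (0.830% to 1.76%), cDC2-like (1.05% to 1.71%) and T cell-like cells (1.56% to 2.50%); classes of 1 library share its depth and free RNA, so the points are not independent.

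A further list of 63 lysosomal genes, outside the 40, was read in the macrophage classes. Under GW5074, 0 of the 59 tested in resident and 0 of the 61 in monocyte-derived macrophage-like cells passed the rule, with medians of −0.02 and 0.03 on the log2 scale. In KO 3 of the 59 and 3 of the 61 were lower and none was higher, with medians of −0.09 and −0.08. Over all genes tested the medians were −0.05 and −0.07, and 6.77% and 5.52% of genes passed, so the counts of the list are no more than the background share. Tcirg1, the a3 subunit of the proton pump, was at 208, 200 and 122 CPM in resident (1.71-fold lower in KO, 1.58 to 1.86) and at 214, 225 and 137 CPM in monocyte-derived macrophage-like cells (1.57-fold, 1.45 to 1.69). Hgsnat, an acetyltransferase of heparan sulfate breakdown, was at 38.7, 32.3 and 24.03 CPM in resident and 31.6, 27.99 and 19.8 CPM in monocyte-derived macrophage-like cells. Each was lowest in the KO library in both classes. The third was Ostm1, the partner of the chloride transporter Clcn7, in the resident class (63.2, 55.3 and 40.1 CPM), and Mfsd8, a membrane protein, in the monocyte-derived class (12.3, 9.50 and 7.59 CPM).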

How the data were processed

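The data were 3 droplet libraries, 1 per group. The authors deposited raw UMI counts per gene and cell barcode. Cell Ranger 2.1.1 and the mm10 build are named in, and given here per, the submitters' processing notes. Per the labels' protocols a SeekOne chip made 3' libraries, while another label names 10x Genomics. Each deposited barcode had at least 500 UMIs. Barcodes under 200 genes or above 20% mitochondrial UMIs were removed (50, 17 and 36). Scrublet called 0 doublets, so the caller did not work and none was removed, and clusters with a median doublet score above 0.1 stayed unnamed. Cells were clustered with scanpy 1.11.5 (2000 variable genes without the lysosomal and inhibitor genes, 30 components, 15 neighbours, Leiden resolution 1) and named by markers. Thresholds for naming were chosen after seeing the data.

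UMIs were summed per class and library, scaled to CPM and compared by exact conditional binomial intervals. A gene was tested at 10 CPM in either library and 20 UMIs over both. The method was tested on simulated counts. No p-value was computed, since cells are not replicates. By rule, values in every library were given for the members past the 1.5-fold rule against WT DMSO in either macrophage class or between these classes in all 3 libraries, and for the most abundant member of each functional group. Of the further list, up to 3 genes past the rule in each direction were named. Genes named beyond this were chosen after their values were seen. The contrasts of cDC1-like with resident cells and of single clusters were also chosen after the data were seen. The members and lists were chosen with earlier results of these data known. The 11 alternatives covered scaling (edgeR 4.0.16 trimmed means, DESeq2 1.42.0 size factors), levels averaged over cells, cell filter, resolution, gating, clustering genes, doublet scores, minimum CPM and depth. Positions came from GENCODE M21 (mm10).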

Additional observations from a re-analysis of the deposited data

How the results depend on the processing

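No paired analysis was possible because each group is 1 library and the labels give no replicate numbers. Of the main counts and medians under 11 alternatives, 105 values kept their direction and size and 14 moved; for single genes and the other classes 912 kept their call, 40 moved, 29 fell under the rule, 15 came past it and 1 turned. Under GW5074 the count in monocyte-derived macrophage-like cells was 1 instead of 0 with cells thinned to 1000 UMIs, and the resident median was −0.033 with cells gated by their own markers. For KO in monocyte-derived macrophage-like cells the median was 0.059 with trimmed-mean and 0.066 with median-of-ratios factors, and the count, 1, was 3 with CPM averaged over cells, 0 with gated cells and 4 after thinning. In resident cells the KO median was −0.050 with median-of-ratios factors, and the count, 2, was 1 with trimmed-mean factors, 1 with median-of-ratios factors and 4 with gated cells. The neutrophil-like count, 14, was 23, 23 and 7 under these 3 settings. Psap under GW5074 in T cell-like cells turned from 0.60 to −0.027 at Leiden resolution 2. The causes were not tested. Depth limits the neutrophil-like values most: 15 and 12 cells of the GW5074 and KO libraries reached 1000 UMIs.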

Other observations

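The cathepsin inhibitors, a list of 8 genes beside the 40, were read in the same classes. Cst3, cystatin C, a secreted inhibitor of cysteine cathepsins, was at 27599, 20243 and 26002 CPM in cDC1-like, 15579, 12924 and 16622 CPM in migratory dendritic cell-like and 11096, 5392 and 7366 CPM in cDC2-like cells of the WT DMSO, GW5074 and KO libraries, against 1099, 1040 and 1039 CPM in resident and 2090, 1943 and 1991 CPM in monocyte-derived macrophage-like cells. It was higher than in the resident class in all 3 libraries by 19.5-fold to 25.1-fold in cDC1-like and by 12.4-fold to 16.0-fold in migratory dendritic cell-like cells. Cstb, the intracellular stefin B, was lower in cDC1-like than in resident cells in all 3 libraries, at 1187, 1074 and 1127 CPM in resident and 156, 158 and 197 CPM in cDC1-like cells. Stfa2l1, a stefin A gene with close copies among which counting may split reads, was at 721, 60.6 and 35.4 CPM in neutrophil-like cells and at most 4.81 CPM in the macrophage classes. In the macrophage classes neither Cst3 nor Cstb passed the size rule under GW5074 or in KO.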
